A study of Danio rerio with 4 samples.

Results

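Genes of DNA replication and of the cell division cycle were taken from whole zebrafish embryos at the end of gastrulation and at an early somite stage. They were chosen by name alone: the symbol begins with mcm and a digit, ccna, ccnb, ccnd, ccne, cdk and a digit, cdc with a digit followed by a digit or a letter, orc, pol with a, d or e and a digit, rfc, aurk, plk or bub, or is pcna or top2a. This gave 78 of the 8793 genes that the array annotation names by a single symbol, read by 103 of the 15617 probe sets of the array. By their known roles, 53 of them act in replication or in the division cycle, and the other 25 share the name but were placed apart as working mainly elsewhere, such as cdc42 in the cytoskeleton and cdk9 in transcription. The line is not sharp, as cdk7 among the 25 is the CDK-activating kinase of transcription factor TFIIH. For a gene with several probe sets the brightest one was used, and 16 of the 78 genes had more than 1.

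Before a cell divides, the origin recognition complex and the MCM helicase license the start sites of replication, and polymerases alpha, delta and epsilon copy the DNA with the sliding clamp PCNA and its loader, replication factor C. D- and E-type cyclins with their kinases carry the cell into S phase, A- and B-type cyclins with Cdk1 carry it into mitosis, and the anaphase-promoting complex with Cdc20 then destroys the mitotic cyclins. The first divisions of the zebrafish embryo run on maternal stores without gap phases, while the gastrula and the somite-stage embryo have cycles with gaps that lengthen as cells differentiate.

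The embryos were of the RW strain and came from crosses of wild-type fish with hemizygous carriers of a transgene that puts a fusion of the Drosophila Engrailed repressor domain and Pou5f3 under the heat shock promoter hsp70l, so that the fusion is made in the whole embryo and not in one tissue. The 4 groups were wild-type and en-pou5f3 embryos at 90% epiboly, called gastrulae here for short, and both genotypes at the 3-somite stage (3-ss). These names give the stage at which heat shock began, so RNA was taken from embryos somewhat older than the name. All were raised at 25°C, heat shocked at 37°C for 60 min and left for 30 min, so that heat shock is common to every group and no array of unheated embryos was analysed here. Each group had 1 array, hybridised with RNA pooled by genotype from several embryos and amplified from 250 ng, so no difference has a replicate check and no test could be made.

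Signals are MAS5 intensities in arbitrary units. Signals under a floor of 32.4 were set to it, and a ratio with 1 signal under the floor is a bound. As a measure of spread, probe sets of the same gene differed in their log2 ratio with an SD of 0.27 between the genotypes at 90% epiboly and 0.34 at 3-ss, and of 0.40 (wild-type) and 0.35 (en-pou5f3) between the stages. This SD holds no variation between embryos or pools. The log2 ratios of 18 spiked hybridization controls lay between -0.26 and 0.38 in the 4 comparisons. For the gene symbol pou5f3, the en-pou5f3 arrays read 8284 against 5473 in the gastrula and 2138 against 1277 at 3-ss. The transgene holds Pou5f3 sequence, and whether this probe set also reads its RNA was not tested. None of 29 markers of epidermis, mesoderm, neural plate, neurons and endoderm lay under the floor on all 4 arrays. In whole embryos, fewer cells of a type and less RNA per cell cannot be told apart.

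Most of the genes were well above the floor. Of the 78 genes, 70 exceeded it on all 4 arrays, and 4 did so on none, namely mcm9, cdk5r2a, cdk5rap2 and plk2b. The median gene lay at the 69.6 percentile of all named genes in wild-type embryos at 90% epiboly and at the 65.5 percentile in en-pou5f3 embryos at 3-ss. The G2 and mitotic entry group stood at a median percentile of 87.9, 86.8, 82.8 and 76.2 in wild-type and en-pou5f3 embryos at 90% epiboly and at 3-ss, in that order. A signal also depends on its probes, so these places compare arrays more than genes.

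**Figure D1:**
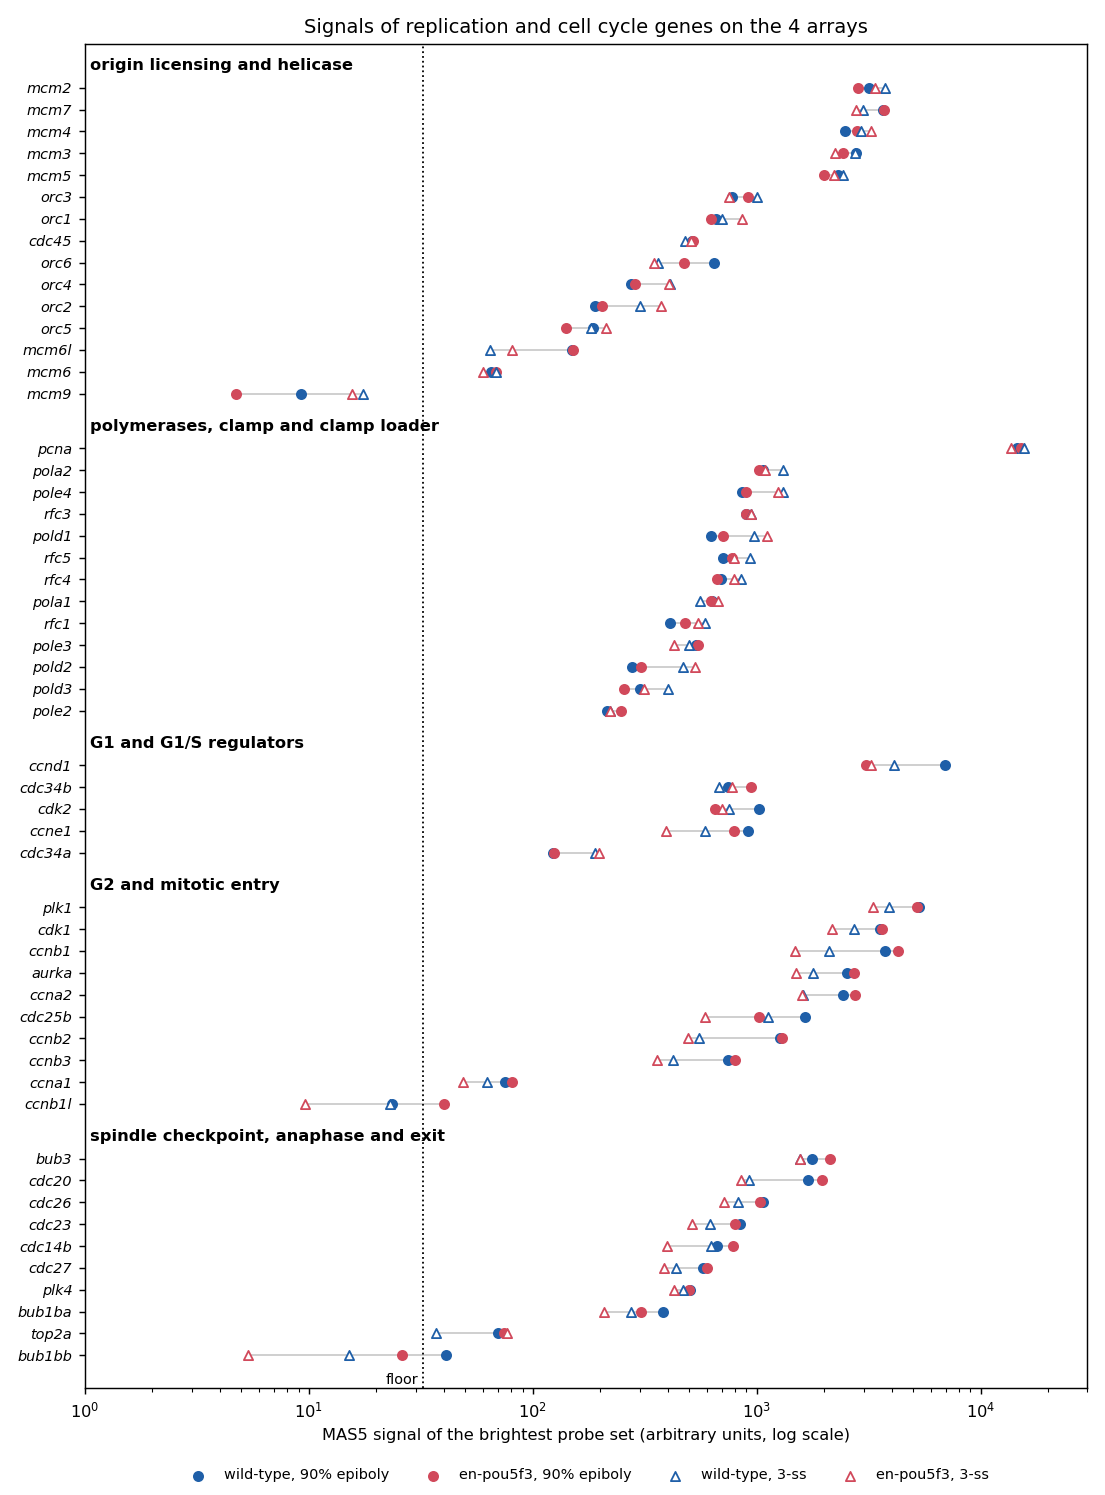
MAS5 signal (arbitrary units, log scale) of the 53 genes of replication and division, 1 array per symbol, grouped by role and ordered by mean signal; the dotted line is the floor of 32.4. In the mitotic groups the 3-ss triangles lie left of the 90% epiboly circles for nearly every gene, while pcna stays between 13707 and 15646 on all arrays.

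In the machinery that licenses origins and unwinds DNA, 0 of 14 measured genes passed 2-fold between the genotypes at either stage, where 2.26% of all genes were lower and 1.10% higher at 90% epiboly and 1.85% and 1.58% at 3-ss. In a group of this size such shares leave little to read from the count, and the log2 ratio of the en-pou5f3 to the wild-type signal had a median of 0.01 at 90% epiboly and -0.04 at 3-ss, beside 0.03 and 0.00 over all genes. The helicase subunit mcm2, the brightest of the group by its mean over the 4 arrays though mcm7 was brighter in both gastrula arrays, read 3184 in wild-type against 2822 in en-pou5f3 gastrulae, and 3740 against 3378 at 3-ss. Its partner mcm5 had 2314 and 2005 at 90% epiboly and 2417 and 2215 at 3-ss. For both subunits the wild-type array was the higher one at each stage, by log2 ratios of -0.13 to -0.21, within the spread between probe sets. The dimmest measured subunit was mcm6, with 64.8 and 68.6 at 90% epiboly and 68.3 and 60.0 at 3-ss. The origin recognition complex was less even. Its subunit orc6 read 643 in wild-type against 472 in en-pou5f3 gastrulae, and 363 against 349 at 3-ss, and orc5 had 185 and 140, then 183 and 213. Their log2 ratios of -0.45 and -0.40 at 90% epiboly exceeded the spread between probe sets, as did -0.41 for orc3 at 3-ss, which read 1000 in wild-type against 750 in en-pou5f3 embryos.

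Polymerase, clamp and clamp loader genes were the most even of the 5 role groups between the genotypes, and all 13 were measured on every array. None passed 2-fold, and their log2 ratios ran from -0.24 to 0.23 at 90% epiboly and from -0.35 to 0.26 at 3-ss. The clamp gene pcna was the brightest of all the genes, at 14548 in wild-type against 15078 in en-pou5f3 gastrulae and at 15646 against 13707 at 3-ss. Its log2 ratios of 0.05 and -0.19 lay within the spread. At the other end, pole2, a subunit of polymerase epsilon, had 215 and 247 at 90% epiboly and 220 on both arrays at 3-ss.

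The genes that start a cycle held the one decrease past 2-fold between the genotypes among the 53. Cyclin D1 (ccnd1) read 6930 in wild-type against 3079 in en-pou5f3 gastrulae, and 4094 against 3238 at 3-ss. On this brightest probe set wild-type gastrulae thus stood apart from the other 3 arrays, which lay between 3079 and 4094. The ratio was 2.25-fold lower at 90% epiboly (log2 -1.17), while at 3-ss it was -0.34, at the size of the spread. A second ccnd1 probe set gave 4571 and 2478, then 3716 and 3161, with log2 ratios of -0.88 and -0.23. The gene of Cdk2, the kinase that works with E- and A-type cyclins, read 1022 and 653 at 90% epiboly and 755 and 698 at 3-ss, with ratios of -0.65 and -0.11. Cyclin E1 (ccne1) had the other order of stages, with 912 and 791 at 90% epiboly and 588 and 394 at 3-ss, or -0.21 and -0.58. The dimmest of the 5, cdc34a, a ubiquitin-conjugating enzyme, was level between the genotypes at 124 and 124, then 190 and 197.

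Among the genes of mitotic entry, cdc25b, the phosphatase that switches on cyclin-dependent kinases, was the one with a ratio beyond the spread in the same direction at both stages. Its signals were 1644 in wild-type against 1029 in en-pou5f3 gastrulae, and 1129 against 587 at 3-ss. The log2 ratios of -0.68 and -0.94 did not pass 2-fold. Its 3 probe sets spoke alike, with -0.62 to -0.77 at 90% epiboly and -0.74 to -0.95 at 3-ss. In rank, cdc25b was 363rd from the lowest of 7261 genes at 90% epiboly and 165th of 7467 at 3-ss.

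**Figure D2:**
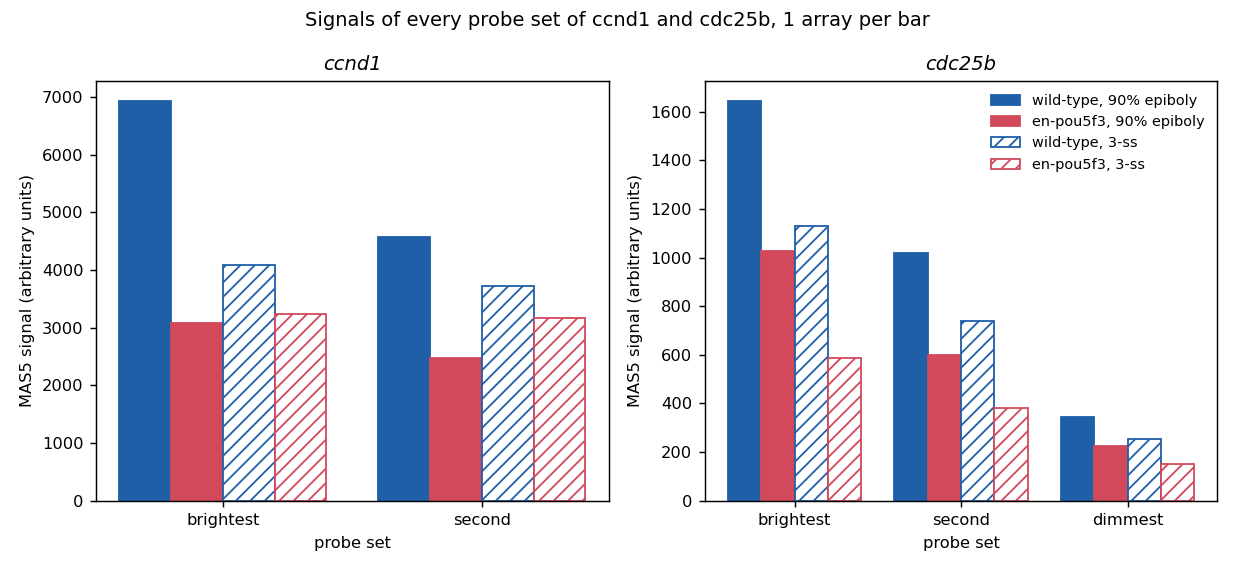
MAS5 signal (arbitrary units, linear axis from 0) of the 2 probe sets of ccnd1 and the 3 of cdc25b, 1 array per bar. The wild-type bar exceeds the en-pou5f3 bar of the same stage for every probe set, with the widest gap for ccnd1 at 90% epiboly (6930 against 3079).

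Cell type markers also differed between the genotypes, and not in one direction within a list. The summed signal of the 6 listed neural plate markers, all 6 on the array, was 21076 in wild-type against 11772 in en-pou5f3 gastrulae, and 15210 against 9797 at 3-ss. At 90% epiboly 3 of these 6 fell past 2-fold (sox3, sox2 and zic2b), while pax6a and sox19b had log2 ratios of 0.74 and 0.38, and at 3-ss 2 of 6 fell (sox3 and pax6a) and zic2b was at 0.24. The 4 markers of early neurons summed to 1434 and 909, then 1904 and 1013, but at 90% epiboly neurog1 alone was lower, at 868 and 80.3, and the other 3 had ratios above 0, so that the list's median was 0.20, against -1.63 at 3-ss. At 3-ss 3 of the 4 were below 0 and dlb was at 0.43. Epidermal markers (6 of 7 on the array) summed to between 85398 and 92741 on all arrays, a sum made mostly of keratins, while the dimmer tp63 read 1507 and 896, then 1059 and 629. Of the mesoderm and muscle markers (7 of 9 on the array, summing to 19436 and 21609, then 17102 and 17563), 3 fell past 2-fold at 90% epiboly (tbxta, myod1 and myf5) and 1 at 3-ss (myod1), with list medians of 0.16 and 0.02. What part these shifts have in the ccnd1 and cdc25b values was not tested.

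Over all 78 genes, few differed between the genotypes at 90% epiboly. Of 74 measured genes, 2 fell by 2-fold or more, against 2.26% of all genes, and 1 rose, against 1.10%. The 2 were ccnd1 and cdk5, a kinase active mainly in neurons. Signals of cdk5 were 93.2 and 27.9 at 90% epiboly, at least 2.87-fold lower, and 150 and 294 at 3-ss, so the order of the genotypes turned between the stages, on a dim probe set. The gene that rose was cdc42ep3, an effector of Cdc42, at 28.3 and 78.6, at least 2.42-fold higher, and 455 and 527 at 3-ss. By the finer measure of the spread between probe sets, 7 of the 52 measured genes of replication and division were lower, beside 16.8% of all genes, and 2 were higher, beside 18.7%. These 7 were ccnd1, cdk2, cdc25b, orc5, orc6, bub1ba and bub1bb, the last of them a bound close to the floor at 41.2 and 26.1.

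At 3-ss the mitotic genes leaned to one side. The 2 mitotic groups together had 17 of 18 measured genes whose signal was lower with en-pou5f3 (log2 ratio below 0), beside 50.4% of all genes, with a median of -0.23. Among the 17, bub3 and ccna2 were level between the genotypes, at -0.004 and -0.009, and a second bub3 probe set was at 0.09. In the 2 replication groups 16 of 27 were below 0, with a median of -0.08. Genes of a group share an array and are not independent, and most of the mitotic ratios were small: 5 of the 18 exceeded the spread downward, beside 15.7% of all genes, and 1 upward, beside 16.7%. At 90% epiboly the same groups had 7 of 20 below 0, beside 44.6% of all genes, with a median of 0.08. The part of the cell type markers given above in the mitotic values was not tested.

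The members of this shift were led, after cdc25b, by cdc14b and ccnb1. The phosphatase gene cdc14b read 664 in wild-type against 786 in en-pou5f3 gastrulae, and 626 against 399 at 3-ss. Its log2 ratio went from 0.24 to -0.65. Cyclin B1 (ccnb1) had 3731 and 4262 at 90% epiboly and 2107 and 1476 at 3-ss, or 0.19 and -0.51, on a probe set whose ID marks probes shared with other sequences. Other genes of mitotic entry showed the same order with smaller ratios at 3-ss, such as -0.33 for cdk1, -0.25 for the spindle kinase aurka, -0.23 for plk1 and -0.16 for ccnb2. Cyclin B3 (ccnb3) was divided: its 4 probe sets gave -0.44 and -0.23, but also 0.23 and 0.37.

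Against this order, top2a, a topoisomerase that separates sister chromatids, was the only one of 72 measured genes that passed 2-fold at 3-ss, beside 1.58% of all genes higher and 1.85% lower. Its signals were 70.2 and 74.5 at 90% epiboly and 36.8 and 77.0 at 3-ss, 2.09-fold higher in en-pou5f3 embryos. The wild-type 3-ss value stands alone, just above the floor. Of its other 4 probe sets 2 were measured, with log2 ratios of -0.22 and -0.66 at 3-ss.

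**Figure D3:**
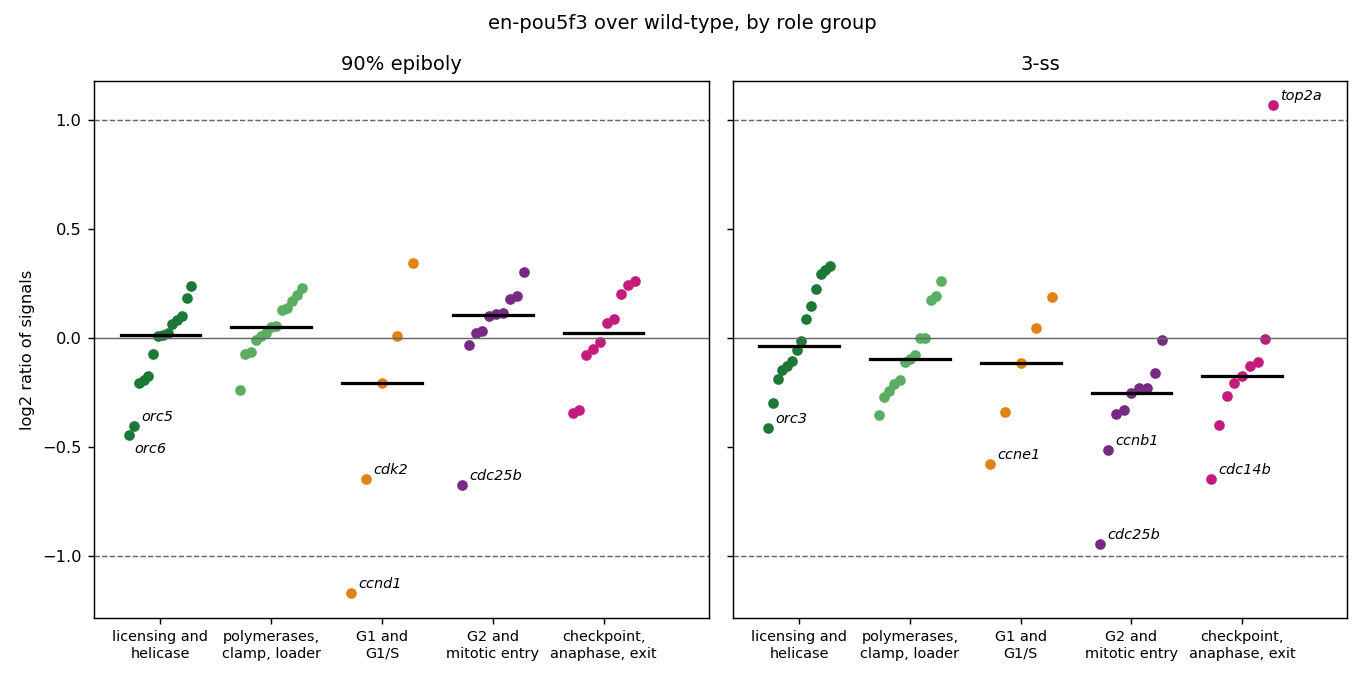
Log2 ratio of the en-pou5f3 to the wild-type signal for the measured genes of the 5 role groups at 90% epiboly (left) and 3-ss (right); each point is a gene, black lines are group medians and dashed lines mark 2-fold. The G2 and mitotic entry group moves from a median of 0.11 to -0.25, while ccnd1 is past 2-fold at 90% epiboly alone.

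From 90% epiboly to 3-ss, replication and mitotic genes parted in wild-type embryos. All 19 measured mitotic genes had lower signals at 3-ss, beside 48.1% of all genes, with a median log2 ratio of -0.45, while 19 of 27 replication genes had higher ones, beside 51.9%, with a median of 0.10. The medians differed by 0.56. In the mitotic groups 12 of 19 were lower by more than the spread between probe sets, beside 19.6% of all genes, and 0 were higher, beside 25.0%. In the 2 replication groups 8 of 27 were higher by more than the spread, near the 25.0% of all genes, and 2 were lower, beside 19.6%. These were 6 of 13 higher and 0 lower in the polymerase, clamp and loader group. In the licensing group 2 of 14 were higher and 2 lower. Markers moved too, and the listed endoderm and yolk syncytial layer markers (6 of 7 on the array) went from 3564 to 1384 in wild-type and from 2435 to 960 in en-pou5f3 embryos, with a median log2 ratio of -1.55 and -1.25. The sum of the mesoderm and muscle markers is carried by msgn1, and their medians were -0.82, with 3 of 7 past 2-fold lower (tbxta, tbx16 and myod1), and -0.52, with 1 of 7. Early neuron markers had a median of 1.23 in wild-type embryos, with 1 of 4 below 0 (neurog1), and -0.15 with en-pou5f3, with 2 of 4 below 0. Neural plate markers had medians of -0.27 and -0.24, with 4 of 6 below 0 in each genotype. In wild-type embryos zic2b was at -1.47 and pax6a at 1.98. The part of these markers in the stage values was not tested.

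The lowest stage ratios among the mitotic genes were those of the B-type cyclins and cdc20, joined in wild-type embryos by the brightest probe set of top2a at -0.93, where its other 2 measured probe sets gave 0.17 and -0.06. Cyclin B2 (ccnb2) had 1277 in wild-type gastrulae and 551 at 3-ss, and 1295 and 492 in en-pou5f3 embryos. It fell 2.32-fold (log2 -1.21) in wild-type and 2.63-fold (-1.40) in en-pou5f3 embryos, and both 3-ss arrays lay below both 90% epiboly arrays. Cyclin B1, with the signals given above, was at -0.82 in wild-type embryos and fell 2.89-fold (-1.53) with en-pou5f3. Cyclin B3 went from 743 to 421 and from 802 to 360, or -0.82 and -1.16, and its other 3 probe sets gave -1.07 to -1.60 and -1.06 to -1.53. The gene of the anaphase-promoting complex activator, cdc20, read 1703 and 920 in wild-type and 1957 and 852 in en-pou5f3 embryos, which is a ratio of -0.89 in the former and a 2.30-fold decrease (-1.20) in the latter. The 3 core subunits of that complex on the list, cdc23, cdc26 and cdc27, were at -0.38 to -0.45 in wild-type and at -0.54 to -0.64 in en-pou5f3 embryos.

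Kinases of mitosis took the same course at smaller size. Polo-like kinase plk1, the brightest mitotic gene, went from 5318 to 3894 in wild-type and from 5194 to 3322 in en-pou5f3 embryos (-0.45 and -0.64). The mitotic kinase gene cdk1 went from 3560 to 2731 and from 3645 to 2174 (-0.38 and -0.75). For aurka the change was from 2523 to 1782 and from 2731 to 1497 (-0.50 and -0.87). On each of these 3 genes the 3-ss arrays were the lower ones in both genotypes, without passing 2-fold. Cyclin A2 (ccna2) had 2424 and 1610 in wild-type and 2744 and 1600 in en-pou5f3 embryos, and the dim ccna1 had 75.2 and 62.4, and 80.6 and 49.0. The checkpoint gene bub3, brightest of the spindle checkpoint, anaphase and exit group, read 1771 and 1564, and 2124 and 1560. Below the others, ccnb1l and bub1bb exceeded the floor on 1 array each, at 40.1 in en-pou5f3 and 41.2 in wild-type gastrulae.

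Within replication, some complexes had stage ratios of one sign and others did not. In polymerase delta all 3 subunits were above 0 in both genotypes, pold1 at 0.63 and 0.65, pold2 at 0.76 and 0.81 and pold3 at 0.41 and 0.29, and so were the 4 measured subunits of replication factor C. Among all genes 48.1% were below 0 in each genotype, and these complexes were picked after their values were seen. Of the loader subunits rfc1 and rfc5 exceeded the spread in wild-type embryos. With en-pou5f3 no loader subunit did, and pold3 was within the spread too. Of the origin recognition complex, orc2 went from 190 to 301 in wild-type and from 203 to 373 in en-pou5f3 embryos (0.66 and 0.87), whereas orc6 had ratios of -0.82 and -0.43. Signals of pold2, the highest ratio of the polymerase group, went from 277 to 471 and from 303 to 531. Of the MCM genes, mcm2 was at 0.23 and 0.26 and mcm7 at -0.30 and -0.42, and the one that passed 2-fold was mcm6l, a gene of the mcm6 kind. It had 149 in wild-type gastrulae and 64.4 at 3-ss, a 2.32-fold decrease (-1.21), and 151 and 81.0 in en-pou5f3 embryos (-0.90). A second mcm6l probe set gave -1.01 and -0.34, while mcm6 itself was at 0.08 and -0.19.

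Of the 5 genes that start the cycle, ccnd1 and cdk2 had unlike stage ratios in the genotypes, without a replicate check. Only these 2 had a difference of the stage ratios beyond the SD of 0.40 between probe sets of a gene, at 0.83 and 0.53. Among 6566 genes, 13.2% were higher by more than this SD and 14.1% lower. A group of 5 is too small to set against such shares. Cyclin D1 was at -0.76 from gastrula to somites in wild-type embryos and at 0.07 in en-pou5f3 embryos, its en-pou5f3 signal being low already at 90% epiboly, and cdk2 had the same form with -0.44 and 0.10. The second ccnd1 probe set gave -0.30, within the spread between probe sets, and 0.35. Cyclin E1 was at -0.63 in wild-type embryos and fell 2.01-fold (-1.01) with en-pou5f3. The enzyme gene cdc34a was higher at 3-ss in both, at 0.62 and 0.66.

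**Figure D4:**
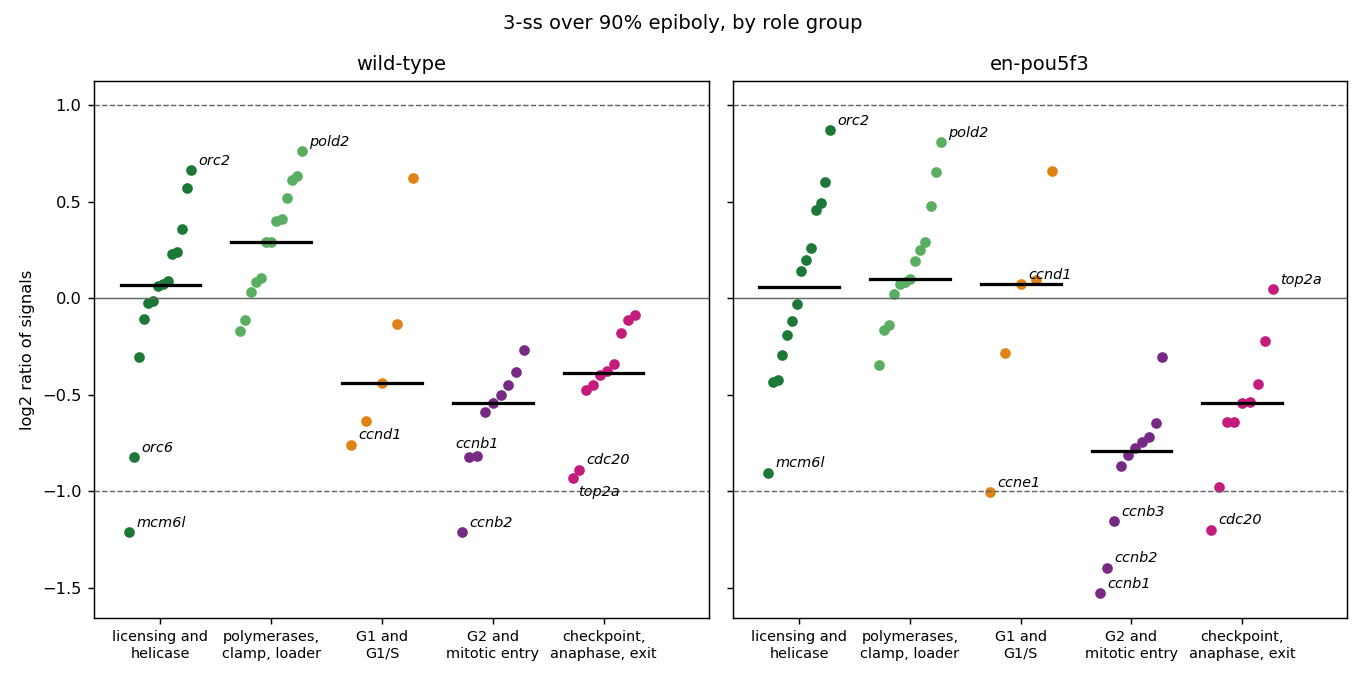
Log2 ratio of 3-ss over 90% epiboly signals for the measured genes of the 5 role groups in wild-type (left) and en-pou5f3 embryos (right); each point is a gene, black lines are group medians and dashed lines mark 2-fold. Mitotic groups lie below 0 in both panels (medians -0.54 and -0.39 in wild-type, -0.79 and -0.54 in en-pou5f3) and replication groups around or above it.

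At 2-fold between the stages, the counts over the 78 genes were small. The share that fell was near that of all genes in wild-type embryos (4.11%) and above it in en-pou5f3 embryos (8.22%). The share that rose was below that of all genes in both (2.74%). In wild-type embryos 3 of 73 fell (ccnb2, mcm6l and cdc42ep4a), against 3.82% of all genes, and 2 rose, against 8.24%. In en-pou5f3 embryos 6 of 73 fell (ccnb1, ccnb2, ccnb3, cdc20, ccne1 and cdc42ep4a), against 3.22%, and 2 rose, against 7.59%. The 5 that fell there beside cdc42ep4a are among the 53 genes of replication and division, which make up most of the 78 by the choice of names. Of these 5, ccne1 was just past the threshold, at 2.01-fold. Of the genes with other main roles, cdc42ep4a had 741 and 202 in wild-type and 511 and 142 in en-pou5f3 embryos, a 3.68-fold and a 3.60-fold decrease, while cdc42ep3 was at least 14.0-fold higher in wild-type and 6.71-fold higher in en-pou5f3 embryos at 3-ss. Thus of these Cdc42 effectors one fell and one rose in both genotypes. The stress-response kinase gene plk3 read 1716 and 3680 in wild-type and 2077 and 2167 in en-pou5f3 embryos, a 2.14-fold rise in the former and a ratio of 0.06 in the latter. For cdk5 the change was 0.68 in wild-type embryos and at least 9.08-fold higher in en-pou5f3 embryos. The brightest of the 25, the GTPase gene cdc42l, lay between 4004 and 4679 on all arrays.

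The mitotic genes had lower stage ratios in en-pou5f3 than in wild-type embryos. In en-pou5f3 embryos 18 of 19 measured mitotic genes were lower at 3-ss, beside 48.1% of all genes, with a median of -0.72, and 16 of 19 were lower by more than the spread, beside 21.5%, and 0 higher, beside 26.6%. Replication genes had a median of 0.10, so that the medians differed by 0.82. Of the 27 replication genes 7 were higher by more than the spread, near the 26.6% of all genes, and 3 were lower, beside 21.5%. Gene by gene, the en-pou5f3 ratio was below the wild-type ratio for 17 of the 18 mitotic genes over the floor on all arrays, the brightest probe set of top2a being the exception, beside 54.5% of 6566 genes, and the median difference was -0.25. Among replication genes it was so for 16 of 27, with a median of -0.04. Probe sets of the same gene differed in this measure with an SD of 0.40, which 3 mitotic genes exceeded downward (cdc14b at -0.89, ccnb1 at -0.71 and ccna1 at -0.45), beside 14.1% of all genes, and top2a upward (0.98), beside 13.2%, so that these shares of 18 are near or under the background. The other top2a probe set over the floor on all arrays gave -0.52. Cyclin B3 counts among the 17 by its brightest probe set at -0.34. Its other probe sets, also over the floor on all arrays, were divided, at -0.45, 0.35 and 0.42. The difference of the stage ratios and that of the genotype ratios are one number, made of the same 4 arrays, and the 1 array of en-pou5f3 embryos at 3-ss enters every one of them.

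**Figure D5:**
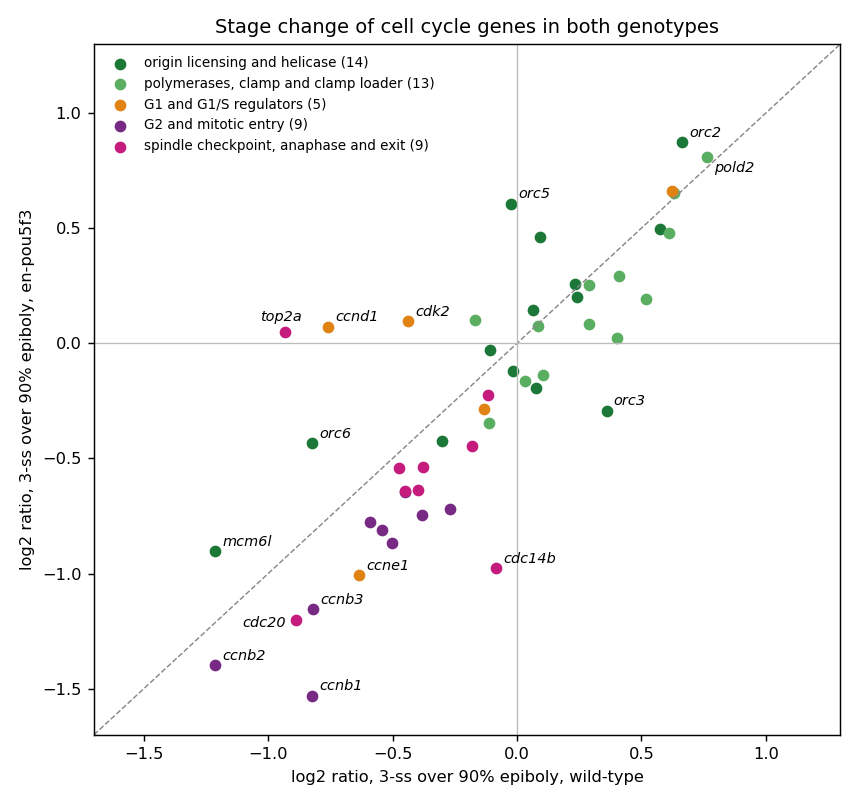
Log2 ratio of 3-ss over 90% epiboly signals in en-pou5f3 embryos (vertical) against wild-type embryos (horizontal) for the 50 genes of replication and division over the floor on all 4 arrays, coloured by role group with the number of genes in parentheses; the dashed line marks equal ratios. The mitotic genes other than top2a (its brightest probe set) lie under that line, and ccnd1, cdk2 and orc5 lie above it.

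As a description across genes, which are not independent and share all 4 arrays, the stage ratios of these 50 genes in the 2 genotypes had a Pearson r of 0.80 and a Spearman rho of 0.81, beside 0.76 and 0.71 over 6566 genes. The same direction was seen for 41 of the 50 (82.0%), beside 77.1% of the 6566. Between the stages, the genotype ratios of the 50 genes had an r of 0.26 and a rho of 0.19, beside 0.43 and 0.33 over all genes.

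Among division-cycle genes outside the naming rule, the mitotic and fork lists had stage medians of the same sign as the groups above, and the licensing list did not. Of 119 listed genes 79 were on the array, and those of mitotic kinases, spindle and cohesin (32 measured in wild-type, 33 with en-pou5f3) had a median stage ratio of -0.40 in wild-type embryos and -0.53 in en-pou5f3 embryos, while those of the fork, nucleotide supply and chromatin assembly (15) had 0.11 and 0.12. Licensing control genes and helicase partners (10) had -0.32 in both genotypes, against 0.07 and 0.06 for the licensing genes of the naming rule, and CDK inhibitors, E2F and Rb genes (21) had -0.20 and -0.41. At 2-fold, 0 of 78 passed in either direction in wild-type embryos, beside 3.82% lower and 8.24% higher among all genes, and in en-pou5f3 embryos 4 of 79 fell, beside 3.22%, and 1 rose, beside 7.59%. The kinesin gene kif20a had 556 and 352 in wild-type and 1271 and 505 in en-pou5f3 embryos, a 2.51-fold decrease in the latter, and was also the 1 gene of the 79 that rose with en-pou5f3 at 90% epiboly, 2.29-fold, beside 1.10% of all genes, where 0 fell, beside 2.26%. Another kinesin gene, kifc1, read 1507 and 796, and 1323 and 652 (-0.92 and -1.02), and cdca8, of the chromosomal passenger complex, was at -0.96 and -0.77. The gene that rose was gins2, a helicase partner, from 163 to 360 in en-pou5f3 embryos (1.14) and from 181 to 348 in wild-type (0.95). The licensing factor gene cdt1 went the other way, at -0.74 in wild-type embryos and -0.82 in en-pou5f3 embryos.

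Between the genotypes at 3-ss, 1 of the 79 fell, beside 1.85% of all genes, and 1 rose, beside 1.58%. Cyclin F (ccnf), part of a ubiquitin ligase, had 2069 and 1995 at 90% epiboly and 1730 and 864 at 3-ss, 2.0-fold lower in en-pou5f3 embryos, so that a single array stood apart. The oocyte kinase gene wee2 rose by at least 2.08-fold, at 20.4 and 67.6, on a dim probe set. The mitotic list outside the naming rule had a median of 0.00 at 90% epiboly. At 3-ss its median was -0.10, with 21 of 33 below 0, beside 50.4% of all genes. The mitotic groups above had -0.23 and 17 of 18. The fork list had the same median at 3-ss, -0.10 with 9 of 15 below 0. CDK inhibitors, E2F and Rb genes were at -0.10 too (14 of 21), and the licensing list was at 0.03 (4 of 10). Outside the naming rule, mitotic genes were thus not set apart from fork genes between the genotypes at 3-ss. The median over the 79 was 0.00 and -0.07.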

How the data were processed

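The authors deposited linear MAS5 intensity values, 1 per probe set, from the Affymetrix GCOS software; the MAS5 version is not given in the sources used here. Each array had a trimmed mean of about 500 (2% of probe sets taken off at each end). The supplementary methods speak of more arrays than the 4 analysed here. Change calls and log ratios of the study's own comparisons were not used.

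From these signals, log2 ratios were computed in pandas 2.3.3 and numpy 2.4.6 (Python 3.11.15), with figures from matplotlib 3.10.9. The floor of 32.4 comes from 20 control probe sets that have no target in zebrafish, as the 95th percentile of their 80 signals (median 6.45). A gene counted as measured with 1 signal over the floor, and as changed at 2-fold. Of 15502 probe sets that are no controls, 10795 had a single symbol, and a gene ID linked 77 of the 78 genes to the current gene table, 0 of them with another symbol there. The 2 probe sets that carry several symbols, one of them fitting the rule, were left out. The calculation was tested on simulated data.

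The genes, role groups and lists were chosen with earlier results of these data known. Named were genes past 2-fold, the brightest and dimmest measured gene of each group and a set of well-known cycle genes; of the listed genes outside the naming rule, those past 2-fold between the genotypes and up to 4 more per list by stage change. The orc, rfc, pold2, bub1ba, cdc14b, cdc23, cdc26, cdc27, mcm7, pold1, pold3 and ccndbp1 values were picked after they were seen, and the roles of ccnb1l and cdc42ep5 were set after the annotation was read. Alternatives tried were other floors, median centring, quantile normalization, other choices among the probe sets of a gene, leaving out shared probes, genes under the floor or genes with other roles, and thresholds of 1.5-fold and 3-fold.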

Additional observations from a re-analysis of the deposited data

Results flagged for a closer look

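Of the 78 genes, 3, all with other main roles, had genotype ratios beyond the spread between probe sets in opposite directions at the stages, a difference that was not tested. For ccndbp1, a cyclin D1-binding protein, the en-pou5f3 to wild-type log2 ratio was 0.35 at 90% epiboly and -0.69 at 3-ss. It was -1.52 (a bound) and 0.97 for cdk5. The plk3 ratio was 0.28 and -0.76. A control probe set whose target the annotation does not name, which enters no comparison, read 110 in wild-type against 5531 in en-pou5f3 gastrulae, and 1670 against 14534 at 3-ss, so that the wild-type array at 3-ss also lay above that at 90% epiboly.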

How the results depend on the processing

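Group medians moved little: 216 values under the alternatives stayed within the SD between probe sets, divided by the square root of the number of genes, and 4 did not. The mitotic entry median in the stage comparisons stayed between -0.56 and -0.50 in wild-type and between -0.84 and -0.76 in en-pou5f3 embryos. The median over the genes in the en-pou5f3 stage comparison was -0.21 with quantile normalization and -0.19 with the dimmest probe set of a gene or without the genes of other roles, and the licensing median there was 0.17 with the dimmest probe set. Counts at 2-fold, being small, changed more. Without a floor the numbers were 3 higher at 90% epiboly, 2 lower and 2 higher at 3-ss, and 4 (wild-type) and 5 (en-pou5f3) higher between the stages; with the floor at the control median they were 3, 2 and 2, and 4 for en-pou5f3. With the floor added to both signals 0 were higher at 90% epiboly and at 3-ss, and 0 were higher at 3-ss with quantile normalization, the mean of probe sets or the dimmest probe set, where top2a was at -0.66. The dimmest probe set left 1 lower at 90% epiboly. Leaving out genes under the floor on 1 array gave 1 lower and 0 higher at 90% epiboly and 1 higher in each stage comparison; leaving out genes of other roles gave 1 lower and 0 higher at 90% epiboly and 0 higher in each stage comparison. At 1.5-fold, 4 were lower at 90% epiboly, 4 lower and 2 higher at 3-ss, 12 lower and 10 higher between the stages in wild-type and 16 and 7 in en-pou5f3 embryos. At 3-fold, 0 differed at 90% epiboly and 0 were higher at 3-ss, 1 was lower and 1 higher in wild-type, and 1 was lower in en-pou5f3 embryos. The share of all genes was not computed at 1.5-fold or 3-fold. Whether the counts at these thresholds exceed the background thus cannot be said. Without probe sets that share probes, ccnb1 had no value and ccnb3 was at 0.23 at 3-ss. The causes of these shifts were not tested beyond the construction of each alternative. The motif alternative was not run because no promoter sequence was used here. No paired analysis was possible because each group had 1 array.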
